A study of Rattus norvegicus with 47 samples.

Results

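The transcripts described here are those of 9 genes that mark the B cell lineage: Cd79a, Cd79b, Cd22, Ms4a1, Blk, Bank1, Pax5, Pou2af1 and Mzb1. They were taken by name from a list of genes that mark the lineage, with earlier results of these data known. All 9 were found under those names in each of the 4 count tables, out of 30045 genes listed per table. The rats were male Fischer 344, of 250 to 300 g per the labels, which give no age for the groups. Whole-body inhalation delivered either filtered air or Min-U-Sil 5, a crystalline silica dust, the latter at 15 mg/m3 for 6 h a day over 5 days, and tissue was taken 1 day or 6 months after the exposure. RNA came from lung and from whole blood, both of which hold many cell types, and blood RNA was depleted of globin transcripts. Each of the 8 groups of tissue, time and treatment held 6 libraries of separately numbered animals, except the air group of lung at 6 months, which held 5. The comparison asked of each gene is silica against air within 1 tissue at 1 time.

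As background, a B cell senses antigen through a membrane antibody that signals by way of the partner chains Ig-alpha (Cd79a) and Ig-beta (Cd79b). Cd22 is a sialic acid-binding co-receptor that dampens this signal, Ms4a1 encodes the surface protein CD20, Blk is a Src-family kinase, and Bank1 is an adaptor of the same signalling route. Pax5 is the transcription factor that maintains B cell identity, Pou2af1 (OBF-1) is a co-activator that works with octamer-binding factors, and Mzb1 is a chaperone of the endoplasmic reticulum that helps antibody assembly and is high in plasma cells. Mature B cells circulate in blood and are a minor population of healthy lung, where they can gather around airways in chronic inflammation. In bulk RNA of this kind, fewer cells of a type and less RNA per cell cannot be told apart.

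The RefSeq promoter table of GRCr8 matched 3 of the 9 genes by symbol (Cd79a, Cd22 and Bank1). The bases upstream of Cd79a are shown as the regulatory sequence of a receptor chain whose transcript varied with those of the other members between libraries, as described further on. The capitals mark its GGAAGT, the core recognised by ETS-family factors. It spans chr1:89621210-89621459 of GRCr8 on the plus strand, read 5′ to 3′.
Cd79a: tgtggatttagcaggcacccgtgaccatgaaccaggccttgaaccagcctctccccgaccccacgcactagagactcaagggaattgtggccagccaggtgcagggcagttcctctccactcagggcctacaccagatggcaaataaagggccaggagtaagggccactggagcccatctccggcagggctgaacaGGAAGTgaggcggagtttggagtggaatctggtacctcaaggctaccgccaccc
The GGAAGT begins 54 bases before the start. On either strand, GGAAGT occurs in 19.2% of the 33469 promoter windows in the table, the octamer ATGCAAAT in 1.56% and CCCNNGGG, the core of the EBF1 site, in 10.8%. The Cd79a window held no exact match to either of the last pair of motifs. The Bank1 window held 2 matches to CCCNNGGG and 2 to GGAAGT, and the Cd22 window held no exact match to any of the 3 motifs. Only exact matches were searched, so sites that depart from these letters went uncounted, and a lack of sites for these factors is not shown. No binding or accessibility was measured in these samples, so the matches are only a description of the sequence.

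Estimated counts summed to between 9643524 and 25875975 per library. Each of the 115 pairs of libraries of 1 group differed by more than sampling noise, with a chi-square per degree of freedom of 3.62 to 32.9. The tissue labels were checked against defining markers. Sftpc, the surfactant protein of alveolar type 2 cells, averaged 8867 to 11580 CPM (counts scaled to library size) in the lung groups and was at or below 0.0844 CPM in every blood library, while Alas2, the erythroid enzyme of haem synthesis, averaged 21740 to 29740 CPM in the blood groups and 26.6 to 44.8 CPM in the lung groups. Neither the exposure chambers nor the cage pairs are given for single animals, so treatment and chamber cannot be told apart. Values below are CPM scaled within each table, as mean ± SD, or as the log2 of the silica to air ratio ± SE. The adjusted p is that of edgeR's quasi-likelihood test with Benjamini-Hochberg adjustment over all genes of the table, with a threshold of 0.05.

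Most of the genes were higher in blood than in lung. In air-exposed rats at 1 day, Cd79b averaged 106 ± 18.9 CPM in blood and 9.44 ± 3.39 CPM in lung (n = 6 each). Ms4a1 averaged 34.9 ± 5.48 and 4.12 ± 1.28 CPM, Cd22 96.8 ± 10.95 and 14.2 ± 1.77 CPM, and Pou2af1 58.9 ± 9.61 and 10.9 ± 1.415 CPM. These 4 genes differed 5.42-fold to 11.3-fold between the tissues at 1 day and 4.03-fold to 7.74-fold at 6 months, and no lung library of air-exposed rats reached a blood library. The tables were normalised separately, so these ratios compare shares of each tissue's RNA and carry no test. Blk was 3.77-fold and 2.05-fold higher in blood at the 2 times, and Mzb1 2.22-fold and 1.379-fold, with overlapping tissues for Mzb1 at 6 months. Pax5 averaged 5.76 ± 1.49 CPM in blood and 0.729 ± 0.408 CPM in lung at 1 day.

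Bank1 was the exception. Its mean was 60.8 ± 3.29 CPM in air lung and 46.0 ± 7.79 CPM in air blood at 1 day, and 56.3 ± 4.96 and 30.5 ± 4.06 CPM at 6 months. Blood stood at 0.756 and 0.542 of the lung level. The tissues overlapped at 1 day and did not at 6 months. For the other 8 genes the order of the air group means was blood at 1 day, then blood at 6 months, then lung. Cd79b averaged 69.2 ± 12.6 CPM in air blood at 6 months, Cd22 77.5 ± 6.18, Pou2af1 38.9 ± 6.14, Ms4a1 24.0 ± 4.05, Blk 8.73 ± 0.978 and Mzb1 4.63 ± 1.29 CPM, each below its mean of 1 day in the separately normalised table. Within lung the air means of the 2 times lay within 1 SD of each other for Cd79b, Ms4a1, Pax5 and Mzb1. Those of Cd22 lay further apart than either SD, at 14.2 ± 1.77 CPM at 1 day and 19.2 ± 2.92 CPM at 6 months.

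**Figure D1:**
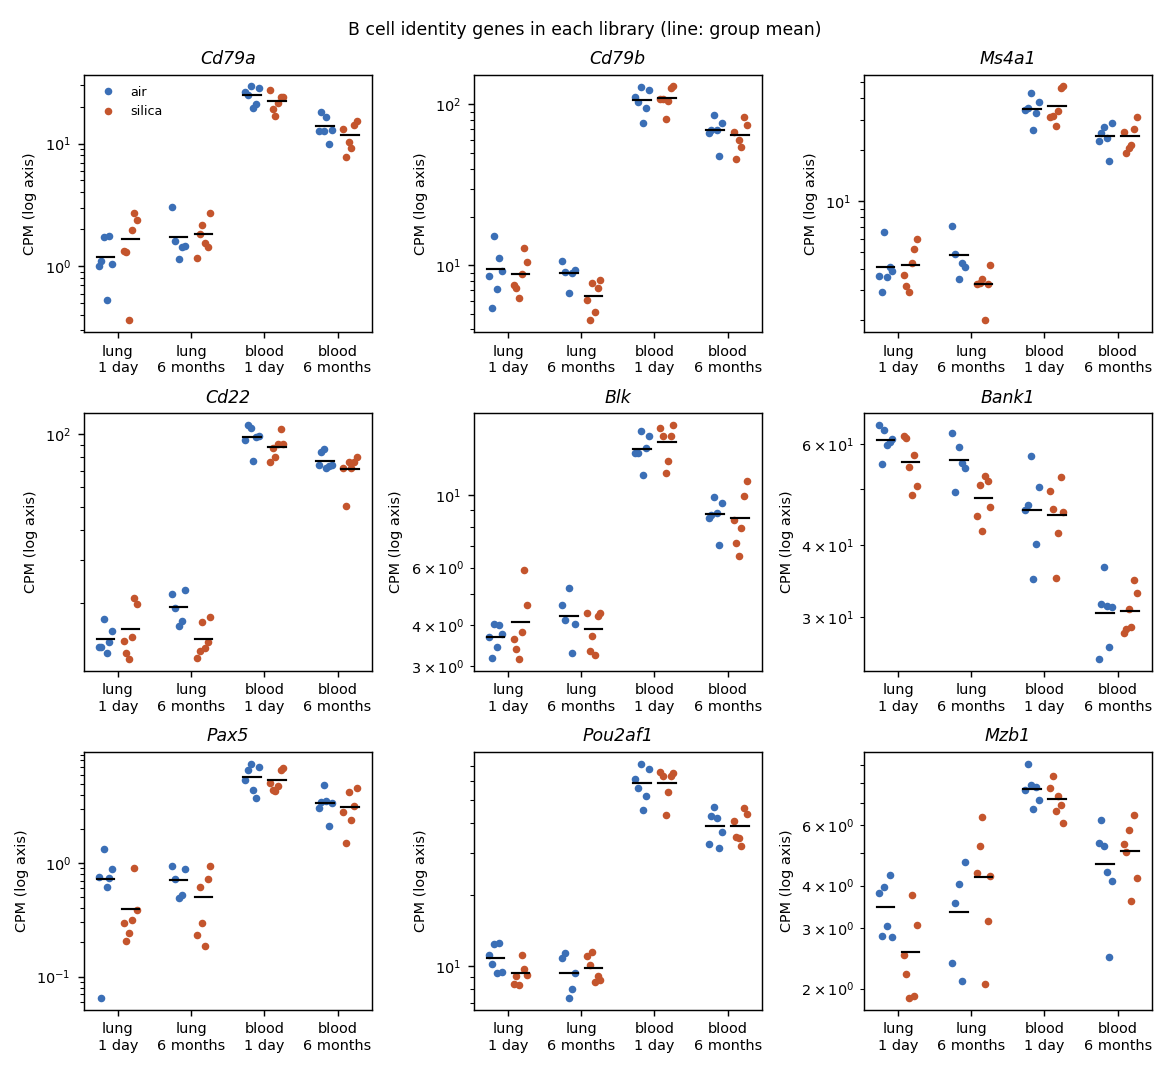
CPM on a log axis for each of the 9 genes in every library (points; air blue, silica orange; the line is the group mean), by tissue and time after exposure. Bank1 is highest in lung (56.3 CPM in air at 6 months against 30.5 CPM in blood), and the silica points of Cd22, Bank1, Ms4a1 and Cd79b sit low in lung at 6 months without separating fully from air.

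Reads of Cd79a were listed on 2 lines. The line named Cd79a held 1.2 ± 0.477 CPM in air lung and 24.9 ± 3.92 CPM in air blood at 1 day. A line named LOC100913063, which carries the RefSeq gene ID of Cd79a, held 10.6 ± 2.48 and 131 ± 23.0 CPM. The named line took only 10.1% to 16.9% of both in the group means, and how the estimates divided reads between the lines is uncertain. Both lines together gave 11.8 ± 2.74 CPM in air lung and 155.5 ± 26.8 CPM in air blood at 1 day (n = 6 each). Log2 differences of Cd79a below are those of the named line, with those of the sum beside them. The figures, summed CPM of the members, correlations and search for outlying libraries used the named line alone.

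In lung at 6 months, 2 of the 8 genes tested fell with silica, Cd22 and Bank1, and none rose. Between lung libraries of a group, Bank1 did not vary with the other members (r = -0.21 with their mean), as described further on. Of all 15309 genes tested, 9.84% passed as higher and 6.38% as lower in silica. No member had groups that failed to overlap, which held for 6.96% (silica all higher) and 3.5% (silica all lower) of all genes. The median log2 fold change of the 8 genes was -0.18, against -0.0080 over all genes. Ms4a1 and Cd79b had estimates as far below 0 as Cd22 but did not pass, and 4 of the 8 had an unadjusted p under 0.05.

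Cd22, the inhibitory co-receptor, stood at 21.8, 19.0, 16.0, 16.8 and 22.6 CPM in the 5 air lungs at 6 months. The 6 silica lungs ranged from 11.9 through a median of 13.4 to 17.4 CPM. All 6 silica libraries were below the air median and 4 were below the lowest air library, so the groups overlapped. The means were 19.2 ± 2.92 CPM (n = 5) and 14.2 ± 2.27 CPM (n = 6), a log2 change of -0.44 ± 0.12 (adjusted p = 0.0251), or 0.737-fold with a 95% interval of 0.616 to 0.882. This call passed in 7 of the 11 fits that left out 1 library and was lost without air animal 49 or 54 or silica animal 58 or 59, where the adjusted p ran up to 0.0636. In the separately normalised table of 1 day, Cd22 averaged 14.2 ± 1.77 CPM in air lung, near the silica mean of 6 months.

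Bank1, the signalling adaptor, stood at 62.55, 49.5, 59.3, 55.6 and 54.5 CPM in the air lungs. In the silica lungs it ranged from 42.3 through 48.8 to 52.8 CPM. All 6 silica values lay below the air median, 3 of them below the lowest air value. The means of 56.3 ± 4.96 and 48.2 ± 4.23 CPM differed by a log2 change of -0.22 ± 0.070 (adjusted p = 0.0476; 0.857-fold, 95% interval 0.772 to 0.952). Only 3 of the 11 fits without 1 library kept this call, with adjusted p between 0.0237 and 0.108. It was lost without air animal 49, 52, 53 or 54 or silica animal 58, 59, 60 or 64, and with limma-voom, no filter on low counts or 1 surrogate variable.

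Ms4a1, which encodes CD20, stood at 7.15, 4.87, 3.47, 4.35 and 4.11 CPM in the air lungs and ranged from 1.996 through 3.28 to 4.20 CPM in the silica lungs. Again all 6 silica libraries were below the air median, and 4 were below every air library. The log2 difference was -0.57 ± 0.20 (adjusted p = 0.0751; 95% interval -1.005 to -0.13). Cd79b, the Ig-beta chain, stood at 10.6, 9.085, 6.69, 8.92 and 9.36 CPM in air and ranged from 4.56 through 6.68 to 8.17 CPM in silica. Its log2 difference was -0.47 ± 0.16 (adjusted p = 0.0692; 95% interval -0.82 to -0.11). With DESeq2 both genes passed and were lower (adjusted p = 0.0402 for Ms4a1 and 0.0298 for Cd79b), so that 4 of the 8 were called by that tool and 1, Cd22, by limma-voom. The counts behind these values were small, 32 to 99 reads per lung library for Ms4a1 and 78 to 147 for Cd79b.

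The other lung genes showed no common direction at 6 months. The kinase Blk had a log2 difference of -0.14 ± 0.14 (adjusted p = 0.547) and the co-activator Pou2af1 of 0.07 ± 0.13 (adjusted p = 0.756). Mzb1, the plasma cell chaperone, averaged 3.36 ± 1.095 CPM in air and 4.24 ± 1.51 CPM in silica lung, a log2 difference of 0.34 ± 0.28 (adjusted p = 0.446; 95% interval -0.26 to 0.95). The air lungs held 2.38, 3.57, 4.05, 2.10 and 4.68 CPM of Mzb1 and the silica lungs 2.06 through 4.32 to 6.345 CPM, so both the highest and the lowest library were silica. Cd79a differed by 0.05 ± 0.27 (adjusted p = 0.925) on its named line and by -0.08 ± 0.15 (adjusted p = 0.757) with both lines summed. Pax5 was below the filter on low counts, with 3 to 14 reads per library. Its CPM were 0.939, 0.730, 0.496, 0.525 and 0.887 in air and 0.187 through 0.457 to 0.934 in silica lung, and with no filter its log2 difference was -0.50 ± 0.39 (adjusted p = 0.476).

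**Figure D2:**
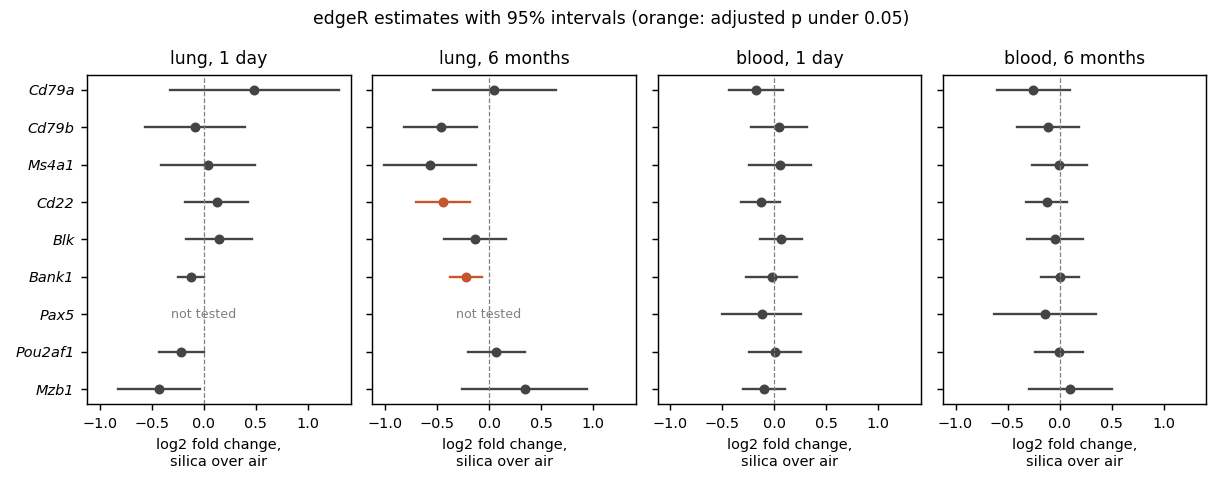
edgeR log2 fold changes of silica over air (points) with 95% intervals (bars) for the 9 genes in the 4 comparisons; orange marks an adjusted p under 0.05. In lung at 6 months Cd22 (-0.44) and Bank1 (-0.22) passed, Ms4a1 (-0.57) and Cd79b (-0.47) did not, and in blood every interval includes 0.

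Markers of other cells moved in the same lungs. The summed CPM of 12 monocyte and macrophage markers went from 1035 ± 71.4 in air to 1518 ± 122 in silica lung at 6 months, with ranges of 966 to 1147 and 1401 to 1711, and 8 of the 11 tested passed as higher and 1 as lower. The 12 neutrophil markers summed to 303 ± 45.1 and 576 ± 75.0 CPM (247 to 363 and 465 to 658), but only 4 of the 12 passed as higher and 0 as lower, with a median log2 of 0.10 and a range of -0.73 to 1.51 led by S100a9. The 15 T cell markers summed to 265 ± 24.3 and 239.5 ± 24.6 CPM, with overlapping ranges of 234 to 289.8 and 209 to 271. Of the 14 tested, 6 had estimates above 0 and 8 below, with a median log2 of -0.049. Only Cd8a passed, as lower (log2 -0.44 ± 0.12, adjusted p = 0.0292), a call lost without air animal 51 or 54 or silica animal 60 or 62. The 10 cytotoxic and natural killer markers summed to 311 ± 61.7 and 223 ± 51.9 CPM (256 to 393 and 153 to 307). All 10 had estimates below 0, with a median of -0.45, and 1, Gzmb, passed (log2 -0.71 ± 0.21, adjusted p = 0.0345; lost without air animal 51, 52 or 54 or silica animal 59, 60, 61 or 62). Of 7 plasmacytoid dendritic cell genes tested 1 was lower, of 8 erythroid genes 1 was lower, and of 9 epithelial and endothelial genes 1 was higher and 4 lower. The 9 B cell genes summed to 109 ± 9.25 CPM in air and 92.5 ± 3.82 CPM in silica lung, ranging from 101 to 124 and from 87.4 to 97.5. That separation rests on Bank1, which contributed 56.3 and 48.2 CPM to the means. The other 8 genes summed to 52.4 ± 7.30 and 44.2 ± 6.05 CPM, with overlapping ranges of 44.5 to 61.4 and 35.8 to 51.7. Among the T cell, natural killer, neutrophil and macrophage markers only Marco was at 0 in any lung library at 6 months, in 3 of the 5 air libraries. The part of these cells in the values of Cd22, Bank1, Ms4a1 and Cd79b was not tested.

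In lung at 1 day, none of the 8 genes tested passed with edgeR, DESeq2 or limma-voom, and 2, Mzb1 and Pou2af1, had an unadjusted p under 0.05 with edgeR. Of all 15331 genes tested, 8.39% passed as higher and 5.72% as lower. All members had overlapping groups, while 5.04% (silica all higher) and 2.75% (silica all lower) of all genes did not. The median log2 fold change of the 8 genes was -0.024, against -0.0024 over all genes. Mzb1 ranged from 2.82 through 3.43 to 4.297 CPM in air and from 1.88 through 2.36 to 3.75 CPM in silica lung. In 4 of the 6 silica libraries Mzb1 was below every air library, while the highest, animal 46, lay within the air range. The log2 difference was -0.43 ± 0.19 (adjusted p = 0.142), and without silica animal 46 it passed at -0.58 (adjusted p = 0.0423). Pou2af1 ranged from 9.37 through 10.7 to 12.6 CPM in air and from 8.36 through 9.16 to 11.2 CPM in silica (log2 -0.22 ± 0.10, adjusted p = 0.174). Here too 4 of 6 silica libraries lay below the lowest air library. Beside these values, the neutrophil markers summed to 205 ± 49.9 CPM in air and 511 ± 137 CPM in silica lung at 1 day (149 to 278 and 340 to 711) and the monocyte and macrophage markers to 958.5 ± 82.5 and 1288 ± 55.3 CPM (848 to 1097 and 1222 to 1350). Of the neutrophil genes 7 were higher and 1 lower of 11, of the monocyte and macrophage genes 6 and 2 of 11, of the T cell genes 0 and 1 of 15 and of the cytotoxic genes 0 and 0 of 10, with 6 of the last at an unadjusted p under 0.05. Of the erythroid genes 0 were higher and 5 lower of 6, and of the epithelial and endothelial genes 0 and 5 of 9, while 0 of 7 plasmacytoid dendritic cell genes passed, 2 of them at an unadjusted p under 0.05. Their part in the B cell values was not tested.

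The receptor and co-receptor genes differed little between silica and air lung at 1 day relative to their error. Cd22 had a log2 difference of 0.13 ± 0.14, Cd79b of -0.09 ± 0.22, Ms4a1 of 0.04 ± 0.21 and Blk of 0.14 ± 0.15, with adjusted p from 0.581 to 0.934. The intervals of Ms4a1 (0.751-fold to 1.405-fold) and Cd79b (0.675-fold to 1.315-fold) leave room for changes of moderate size in either direction. Bank1 averaged 60.8 ± 3.29 CPM in air and 55.9 ± 5.39 CPM in silica (log2 -0.12 ± 0.060, adjusted p = 0.202). Cd79a differed by 0.49 ± 0.38 (adjusted p = 0.449) on its named line, from 6 to 36 reads per library, and by 0.02 ± 0.18 (adjusted p = 0.951) with both lines summed. Pax5, with 1 to 23 reads per library, fell under the filter. It ranged from 0.065 through 0.745 to 1.32 CPM in air and from 0.207 through 0.306 to 0.910 CPM in silica lung, and the lowest of all 12 libraries was an air library. With no filter its log2 difference was -0.90 ± 0.48 (adjusted p = 0.308).

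In blood, none of the 9 genes passed at either time with edgeR, DESeq2 or limma-voom, and none had an unadjusted p under 0.05 with edgeR. Of all 12253 genes tested in blood at 1 day, 1.19% passed as higher and 0.18% as lower. At 6 months 0.0086% of 11629, a single gene, passed as higher and 0% as lower. Air and silica overlapped for every member, whereas silica lay wholly above air for 1.51% of all genes at 1 day and 0.267% at 6 months, and wholly below for 0.424% and 0.112%. The median log2 fold change of the 9 genes was -0.026 at 1 day and -0.044 at 6 months, against -0.010 and -0.0087 over all genes. Adjusted p of the 9 ran from 0.564 upward at 1 day and from 0.664 upward at 6 months.

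Cd79b in blood at 1 day ranged from 76.9 through 107.5 to 127.5 CPM in air and from 80.85 through 108 to 129.8 CPM in silica, nearly the same span (log2 0.05 ± 0.13; 95% interval 0.855-fold to 1.24-fold). Ms4a1 ranged from 26.3 through 34.7 to 42.8 CPM and from 27.7 through 32.8 to 47.1 CPM (log2 0.05 ± 0.14). Pou2af1 averaged 58.9 ± 9.61 and 59.2 ± 8.74 CPM (log2 0.0043 ± 0.12). These 3 groups of values overlapped throughout. Cd22 averaged 96.8 ± 10.95 CPM in air and 88.3 ± 9.92 CPM in silica (log2 -0.13 ± 0.086), and Cd79a had a log2 difference of -0.18 ± 0.12 on its named line and 0.02 ± 0.12 with both lines summed. Blk, Bank1, Pax5 and Mzb1 had log2 differences between -0.12 and 0.07. The widest interval at 1 day was that of Pax5, 0.707-fold to 1.198-fold.

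At 6 months in blood, Ms4a1 ranged from 17.1 through 24.2 to 28.5 CPM in air and from 19.2 through 23.3 to 31.1 CPM in silica (log2 -0.0044 ± 0.13). Bank1 differed by 0.0078 ± 0.086 and Pou2af1 by -0.0044 ± 0.11, and the means of both groups were close for each. Cd22 averaged 77.5 ± 6.18 and 71.3 ± 10.7 CPM (log2 -0.12 ± 0.093). Its silica group held 1 low library, animal 59 at 50.35 CPM, while the next was at 71.95 CPM. Cd79b had a log2 difference of -0.11 ± 0.14, Cd79a of -0.25 ± 0.17 (-0.13 ± 0.12 with both lines summed), Pax5 of -0.14 ± 0.23 and Mzb1 of 0.10 ± 0.19. Beside these values, the summed neutrophil markers of blood stood at 2586 ± 212 CPM in air and 4101 ± 273 CPM in silica at 1 day, with ranges of 2250 to 2864 and 3628 to 4457, and 5 of 12 passed as higher. At 6 months they stood at 3708 ± 288 and 4361 ± 775 CPM with overlapping ranges of 3398 to 4151 and 3550 to 5475, and 0 of 12 passed with edgeR, 7 of them at an unadjusted p under 0.05. Their part in the B cell values was not tested.

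Differences between the silica effects themselves were tested as interactions. None of the 9 genes passed in any of the 4 tests with edgeR, DESeq2 or limma-voom. In lung, 6 months against 1 day, 1.12% of all 15786 genes passed with a difference above 0 and 0.253% below 0, and 2 of the 9 had an unadjusted p under 0.05. The silica effect on Cd22 differed by -0.56 ± 0.20 on the log2 scale at 6 months (adjusted p = 0.184), from 0.13 at 1 day to -0.44. That on Mzb1 differed by 0.78 ± 0.35 (adjusted p = 0.323), from -0.43 to 0.34. In blood, 6 months against 1 day, 0% of all 12444 genes passed and 0 of the 9 had an unadjusted p under 0.05. Cd22 differed there by 0.02 ± 0.13. Between blood and lung at 1 day, 1.98% of all genes passed with a higher effect in blood and 2.05% with a lower one, and again 0 of the 9 had an unadjusted p under 0.05. At 6 months these shares were 1% and 2.53%, and 3 of the 9 had an unadjusted p under 0.05, each with a higher silica effect in blood than in lung. These were Ms4a1 (0.60 ± 0.24, adjusted p = 0.192), Cd22 (0.34 ± 0.15, adjusted p = 0.254) and Bank1 (0.25 ± 0.12, adjusted p = 0.265). The fall of Cd22 and Bank1 in lung at 6 months is therefore not shown to differ from the values of blood or of 1 day.

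Other genes of B cell function were read from 4 lists. Their counts of calls stand beside 8.39% of all genes higher and 5.72% lower in lung at 1 day, and 9.84% higher and 6.38% lower at 6 months, and several are near those shares. Of 20 genes of receptor signalling and co-receptors, 4 of the 19 tested in lung at 1 day passed as higher and 0 as lower (median log2 0.11). They were led by Fcgr2b, an inhibitory antibody receptor also made by myeloid cells (0.73 ± 0.10, adjusted p = 3.04e-04), Fcrla, an Fc receptor-like protein of B cells (0.65 ± 0.11, adjusted p = 0.00108) and the kinase Btk (0.35 ± 0.082, adjusted p = 0.00948). Fcrla went from 8.32 ± 1.15 to 13.1 ± 1.66 CPM (n = 6 each), with ranges of 6.96 to 9.73 and 9.89 to 14.2 that did not overlap. At 6 months Fcrla stood at 10.6 ± 1.998 CPM in air and 10.3 ± 1.367 CPM in silica lung, and its effect differed between the times by -0.68 ± 0.17 (adjusted p = 0.0444), a call lost with limma-voom, with no filter on low counts and in 14 of the 23 fits without 1 library (animals 37, 40, 41 and 43 to 47 of 1 day and 49, 54 and 58 to 61 of 6 months), with adjusted p up to 0.0923. At 6 months 6 of 19 genes of this list were higher and 0 lower, led by Vav1 (0.40 ± 0.052), Fcgr2b (0.80 ± 0.12) and Lyn (0.18 ± 0.036), all of which myeloid cells also express.

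Of 14 transcription factors of the lineage, 2 passed as higher in lung at 1 day, Irf8 (0.32 ± 0.066) and Spi1 (0.17 ± 0.048), and none as lower. The Spi1 call at 1 day was lost without air animal 37, 39, 40 or 42 or silica animal 45, 46, 47 or 48 and with all 4 lung groups in 1 model (adjusted p up to 0.148). At 6 months Spi1 was higher (0.49 ± 0.090, adjusted p = 0.00327) and Ets1 lower (-0.29 ± 0.068, adjusted p = 0.0124). Spi1 (PU.1) and Irf8 also act in myeloid cells. Of 12 genes tested for plasma cells and antibody secretion, 5 were higher and 1 lower at 1 day. Txndc5 (0.19 ± 0.032), Derl3 (0.57 ± 0.087) and Xbp1 (0.13 ± 0.032) rose. Txndc5 and Derl3 are parts of the secretory machinery and Xbp1 is a transcription factor that drives it, and none of them is confined to plasma cells. The Xbp1 call was lost with all 4 lung groups in 1 model (adjusted p = 0.07996). At 6 months 3 rose and 0 fell: Txndc5 (0.22 ± 0.050), the syndecan Sdc1 (0.21 ± 0.054; lost without air animal 53 or 54, adjusted p up to 0.05495), which epithelium also makes, and Irf4 (0.53 ± 0.16, adjusted p = 0.0404), a factor of plasma cells and activated lymphocytes. The Irf4 call was lost in 7 of 11 fits without 1 library (air animal 49, 52 or 53 or silica animal 58, 59, 60 or 62) and with limma-voom or 1 surrogate variable, with adjusted p up to 0.0956. No line was found for Jchain, Ighm, Ighd, Igha or Igkc under those names, so these transcripts were not analysed here.

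Of 17 genes of B cell survival and homing, 3 passed as higher and 1 as lower in lung at 1 day. Ltb, the lymphotoxin that organises lymphoid tissue, went from 21.8 ± 1.19 to 48.4 ± 5.34 CPM (log2 1.15 ± 0.070, adjusted p = 3.85e-07), and Fcer2, the low-affinity IgE receptor CD23, from 2.90 ± 0.636 to 4.301 ± 0.821 CPM (0.56 ± 0.16, adjusted p = 0.0310; lost without air animal 37, 38 or 40 or silica animal 47 or 48, up to 0.0693). The chemokine Ccl21 fell (-0.24 ± 0.051, adjusted p = 0.00596). At 6 months Ltb (0.67 ± 0.084, adjusted p = 3.20e-04) and Tnfsf13, which encodes the survival factor APRIL (0.49 ± 0.070, adjusted p = 6.96e-04), were higher and 0 of the 16 tested were lower. The silica effect on Ltb in lung differed between the times by -0.47 (adjusted p = 0.0310). That difference lost its call in 12 of 29 alternative fits, with adjusted p up to 0.0726. In blood the same 4 lists gave 1 call, Ikzf3 (Aiolos), a lymphoid factor that was lower at 1 day, from 35.3 ± 2.33 to 26.8 ± 3.55 CPM (log2 -0.40 ± 0.078, adjusted p = 0.0227). That call was lost in 8 of 12 fits without 1 library (air animal 38, 39, 41 or 42 or silica animal 45, 46, 47 or 48), with adjusted p up to 0.0616. None of the 4 lists had a call with edgeR in blood at 6 months, with 0, 2, 0 and 1 genes of the receptor, factor, plasma cell and survival lists at an unadjusted p under 0.05. Of 6 B cell precursor genes only Cd34 was tested in lung, with no call. With edgeR its unadjusted p was under 0.05 at 1 day (log2 -0.16) and at 6 months (log2 -0.11).

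Within groups, the genes varied together from library to library in blood. Their log2 CPM were centred on each group's mean, and Pearson's r was taken over the 24 blood libraries as a description, since libraries share their scaling. The 36 pairs had a median r of 0.69, from 0.21 to 0.90, and 26 pairs were above 0.5. Cd79b followed the mean of the other members most closely (r = 0.95), and Pou2af1 (0.86), Ms4a1 (0.84), Cd79a (0.82) came next. Mzb1 followed least (0.36). In 23 lung libraries, where Pax5 was too low to include, the 28 pairs had a median r of 0.39, from -0.46 to 0.83, and 12 were above 0.5. Ms4a1 (0.83), Cd79b (0.79), Cd22 (0.79) and Cd79a (0.75) followed the mean of the others, whereas Bank1 had r = -0.21 and Mzb1 0.27.

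**Figure D3:**
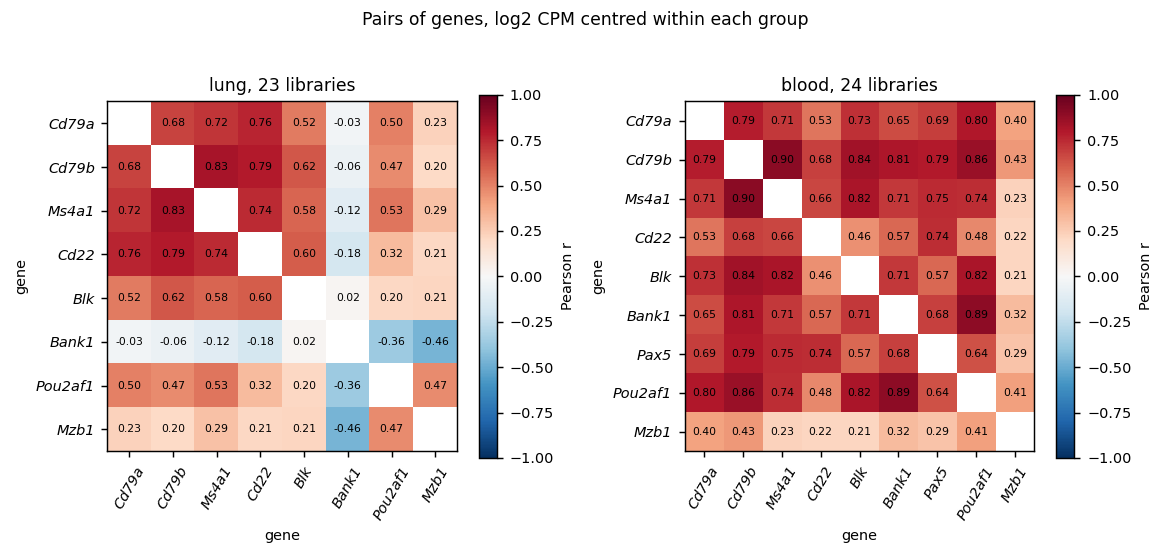
Pearson r between pairs of the genes, from log2 CPM centred within each group, over 23 lung and 24 blood libraries (colour scale -1 to 1). In blood Bank1 follows the other genes (0.81 with their mean), while in lung its row is near or below 0.

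Genes outside the set whose centred values were among the most like the mean of the members were, in lung, Grk6 (r = 0.86), Plac8 (0.84), B3gnt5 (0.84) and LOC100913063 (0.83), among 15146 genes. LOC100913063 is the other line of Cd79a. In blood they were Fcrla (0.97), Faim3 (0.96), LOC100913063 (0.95), RT1-DOa (0.95) and Slc45a3 (0.93), among 11592 genes. Faim3 encodes the Fc receptor for IgM, and RT1-DOa is a class II histocompatibility chain.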

How the data were processed

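RNA of 47 libraries (lung and whole blood) was sequenced from stranded libraries made with an mRNA kit, per the labels' protocols. Per the submitters' processing notes, Salmon 1.10.1, STAR 2.6.1d, Trim Galore 0.6.7, bcl2fastq 2.19 and cutadapt 3.4 were used, and the genome was Rnor_6.0; their roles are not given in the sources used here. The authors deposited 4 tables of estimated counts (expected counts, not normalized), 1 for each tissue and time; columns were matched to samples by title. Estimated counts divide reads between similar genes, which makes split lines such as those of Cd79a uncertain.

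Counts were rounded and tested here with edgeR 4.0.16 in R 4.3.3 (TMM, filterByExpr with a minimum count of 10, quasi-likelihood test, Benjamini-Hochberg adjustment over all genes, threshold 0.05). SE is the log2 change over the root of F, and 95% intervals use edgeR's total degrees of freedom (residual plus prior). CPM are shares of a library, so a rise of other transcripts lowers them. Correlations used log2 CPM with a prior count of 2. The edgeR test of silica against air was first run on simulated counts for each tissue and time. The other statistics were not run on simulated data.

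Alternatives were DESeq2 1.42.0, limma-voom (limma 3.58.1), RLE factors, a minimum count of 50, no filter, globin, erythroid and mitochondrial ribosomal RNA genes left out (silica against air), all 4 groups of a tissue in 1 model, 1 surrogate variable (sva 3.50.0), an animal block for tissue differences, and each library left out. Summing both Cd79a lines, and running these alternatives for genes of the other lists, were added after seeing the data.

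Named genes were the 9 members, up to 3 genes with the smallest p past the threshold per list and comparison, and the 5 genes most like the members per tissue. 1 gene that this rule names is not reported here. The lists besides the 9 were B cell receptor signalling, lineage transcription factors, plasma cell, survival and homing, B cell precursor, T cell, cytotoxic, neutrophil, monocyte and macrophage, plasmacytoid dendritic, erythroid, and lung epithelial and endothelial genes. Members and lists were chosen with earlier results of these data known. Names came from the tables, with 5 list genes matched through older symbols or gene IDs in RefSeq's GRCr8 table.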

Additional observations from a re-analysis of the deposited data

Results flagged for a closer look

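In 4 of 72 sets of 1 gene in 1 group, a single library lay far from the rest of its group by Dixon's 95% criterion, which chance alone meets in about 1 in 20 groups. Ms4a1 reached 6.601 CPM in air lung at 1 day in animal 39, with the next library at 4.075 CPM. Cd79a reached 3.03 CPM in air lung at 6 months in animal 49, with the next at 1.62 CPM. Pax5 reached 0.910 CPM in silica lung at 1 day in animal 47, with the next at 0.383 CPM. Cd22 was at 50.35 CPM in silica blood at 6 months in animal 59, with the next at 71.95 CPM.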

How the results depend on the processing

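Of 1777 alternative values of the genes' log2 differences, 1757 kept their side of the threshold, 15 lost a call and 5 gained one. None changed sign where either fit passed the threshold. Changes of sign where neither fit passed were counted as kept. For example, Cd79a in lung at 6 months kept its sign in 6 of 11 fits without 1 library, and Pou2af1 in blood at 1 day in 5 of 12. The number of genes called in lung at 6 months, 2 of 8, became 4 with DESeq2 and 1 with limma-voom, with no filter or with 1 surrogate variable, and 0 to 2 with each library left out. In lung at 1 day it was 0 to 1 with each library left out, the 1 being Mzb1 without silica animal 46. Cd79b in lung at 6 months also passed without air animal 52 (adjusted p = 0.0418) or silica animal 64 (0.0412). Counts of all genes called moved as follows. In blood at 1 day the count of 168 became 360 with DESeq2, 271 with 1 surrogate variable and 86 to 211 with each library left out. In blood at 6 months the count of 1 became 2 with DESeq2, 0 with 1 surrogate variable and 0 to 1 with each library left out. For the time difference in lung 217 became 351 with DESeq2. In blood 0 became 85 with DESeq2 and 0 to 3 with each library left out. Between tissues at 6 months 557 became 1012 with DESeq2 and 332 to 609 with each library left out (332 without air lung of animal 53). The cause was not tested. Summing lines that share a name was not run, since 0 of the 9 members stood on more than 1 line under the same name. Lung and blood libraries carry the same animal numbers, though the labels do not state that equal numbers are 1 animal. Deviations of lung and blood from their group means had correlations of -0.086 to 0.18 over genes for the 12 animal numbers of 1 day, of which 3 exceeded 0.1. For the 9 shared numbers of 6 months they were -0.082 to 0.092. These correlations cannot decide whether equal numbers are 1 animal, since lung and blood of 1 animal need not deviate alike. The main tests of tissue differences used no pairing, as the labels do not state it. With the animal as a replicate block, the tissue difference was called for 415 of all genes in place of 645 at 1 day and 202 in place of 557 at 6 months, with 0 of the 9 members called either way. Air and silica animals carry different numbers, so no paired analysis of silica against air was possible. Of 77 calls of list genes, 56 held in every alternative and 0 reversed. Low counts limit Pax5 and the named line of Cd79a in lung.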

Other observations

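Bank1 in lung was looked at further after its values were seen. Over the 23 lung libraries, centred within groups, its log2 CPM had Pearson r = -0.60 with the mean of 11 monocyte and macrophage genes, 0.43 with 9 epithelial and endothelial genes and 0.41 with 6 erythroid genes. The mean of the other members had r = -0.20, 0.15 and -0.23 with the same lists, and 0.74 with 14 T cell genes, against -0.19 for Bank1. The gene most like Bank1 in lung was Pdzk1ip1 (r = 0.80). These are descriptions over libraries that share their scaling, with no test.

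The early B cell genes Rag1 and Vpreb3 were at or near 0 in lung. Rag1 averaged 0.0130 to 0.0625 CPM in the 4 lung groups and 0.0191 to 0.0609 CPM in the blood groups. Vpreb3 averaged 0.139 to 0.247 CPM in lung and 1.52 to 2.82 CPM in blood. Rag1 was on the B cell precursor list and Vpreb3 on the receptor list. The 6 precursor genes together averaged 62.0 to 72.9 CPM in the lung groups and 0.824 to 1.03 CPM in the blood groups. Of them only Cd34 passed the filter on low counts in lung, and Rag1, Rag2, Dntt, Vpreb1 and Igll1 did not.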
